A study of Mus musculus with 2 samples.

Results

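Among 6462 cells from the back skin of E16.5 mouse embryos, 260 carried open chromatin at genes of the hematopoietic immune lineage and are called immune-like here. They were chosen by a score. A cell entered with at least 5000 transposition cut sites in peaks. Its share of cut sites in peaks within 2000 bp of the gene bodies of Ptprc, Laptm5, Spi1, Csf1r, Tyrobp, Fcer1g, Coro1a, Ikzf1 and Vav1 was divided by the mean share over the cells of its library. Immune-like cells had a score of at least 3 and at least 20 such sites. This gave 35 of 2182 cells in the Control library and 225 of 4280 cells in the MOF cKO library.

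Open chromatin was profiled with single-cell ATAC-seq. In this assay the transposase Tn5 cuts accessible DNA, and the cuts are counted for each peak in each cell barcode. The study had a single library of each genotype, Control and MOF cKO (MOFfl/fl/K14Cre), both from mice of mixed C57Bl/6J and CD-1 background with the K14-H2BGFP reporter. In MOF cKO, Cre is driven by the Krt14 promoter, which is active in the skin epithelium, so that the floxed Kat8 gene, which encodes the histone acetyltransferase MOF, is lost there. Hematopoietic cells are not expected to carry this deletion, so they would share the skin with mutant epithelium rather than the mutation. GFP-positive epithelial cells and GFP-negative cells were sorted and recombined before the libraries were made, in favour of epithelial cells. Which fraction a given cell came from is not recorded in the values used here. The sources used here give different ratios for this mixing, so shares of all cells are set by a step whose size is uncertain. By the study's methods the controls were littermates, in general wild type or heterozygous, and the libraries were a single pair of samples. Which of these alleles this Control carried, and whether a sample was a single embryo, is not given in the sources used here. With 1 library per genotype no test between genotypes was possible, and the 95% intervals given cover counting error only.

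With 249679 peaks and 2541 barcodes the Control library held 169641002 cut sites, and with 340134 peaks and 4348 barcodes the MOF cKO library held 324310197. The median cell that entered had 70714.5 sites in Control and 66960 in MOF cKO. Of all barcodes 10 occurred in both libraries, and 0 of them belonged to an immune-like cell. Because peaks were called in each library separately, both lists were merged, and levels are given as CPM, the usual counts scaled to depth, here the cut sites of a gene or region relative to all sites of the group (for promoters and regions, sites in regions with a peak in each library; for gene bodies, sites in all peaks of a library). Immune-like cells together had 2086733 such sites in Control and 8960395 in MOF cKO, so the Control values are the less precise.

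Skin of the embryo is seeded early by macrophages and mast cells, which form its first immune defence. All of them carry the phosphatase CD45 (Ptprc) on their surface and silence the programs of other lineages. The transcription factor PU.1, the product of Spi1, binds purine-rich sites and opens enhancers of myeloid cells, together with C/EBP factors. Macrophages depend on the growth factor receptor encoded by Csf1r, and Tyrobp and Fcer1g encode adaptors that pass on signals from activating receptors. Mast cells use GATA factors and store histamine and proteases in granules.

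The DNA around which the results turn is shown in lower case, 5′ to 3′ on the plus strand of GRCm38 (mm10), with motif matches in capitals. The motifs searched on both strands were GAGGAAGT for PU.1, TTGCNNAA for C/EBP, TGANTCA for AP-1, a pair of GAAA words any 2 bases apart for IRF, TGTGGTTT for RUNX, AGATAAG for GATA factors, CACGTG for the E-box and CCA followed after any 2 bases by AGGGGGC for CTCF, and a match is a description of the letters only. The first sequence is the central 300 bases, chr2:19627026-19627325, of the distal region with the greatest excess in immune-like cells, an intergenic region 30159 bp from Otud1. The following 3 are the central 300 bases of the highest-ranking regions with a PU.1 match outside exons, in introns of Ccdc146 (chr5:21411301-21411600), Rin2 (chr2:145740768-145741067) and Cmtm6 (chr9:114742781-114743080). The next is an intronic region of Rora (chr9:69034481-69034780), shown because it was open in cells of the mast-like subset and nearly closed in macrophage-like cells and holds a GATA match. The last is the 250 bases before the start of Vav1, one of the genes of the score (chr17:57278850-57279099), from RefSeq on GRCm38.p6, where a PU.1 match stands just before the start. Of 32851 RefSeq promoter windows of the same length 2.44% held a PU.1 match, and the table had an entry for 6 of the 9 genes of the score, of which Vav1 alone held a match to any motif searched.
Otud1 region: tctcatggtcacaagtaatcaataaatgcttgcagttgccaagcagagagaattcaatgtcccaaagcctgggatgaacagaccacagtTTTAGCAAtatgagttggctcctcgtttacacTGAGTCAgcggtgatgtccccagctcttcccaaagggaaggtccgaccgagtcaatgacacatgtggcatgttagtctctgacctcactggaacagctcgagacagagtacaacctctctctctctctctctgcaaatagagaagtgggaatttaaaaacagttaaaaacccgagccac
Ccdc146 intron: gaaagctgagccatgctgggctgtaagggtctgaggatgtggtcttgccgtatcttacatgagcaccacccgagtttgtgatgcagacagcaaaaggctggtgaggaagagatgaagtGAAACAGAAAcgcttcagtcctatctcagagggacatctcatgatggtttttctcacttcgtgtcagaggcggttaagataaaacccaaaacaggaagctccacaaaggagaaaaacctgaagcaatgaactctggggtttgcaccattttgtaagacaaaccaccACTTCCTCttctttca
Rin2 intron: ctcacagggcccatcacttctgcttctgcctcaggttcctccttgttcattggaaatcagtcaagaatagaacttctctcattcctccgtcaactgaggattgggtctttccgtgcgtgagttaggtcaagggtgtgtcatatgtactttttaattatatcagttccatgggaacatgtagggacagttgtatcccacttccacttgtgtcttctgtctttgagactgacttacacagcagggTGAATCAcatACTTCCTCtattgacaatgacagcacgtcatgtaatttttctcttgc
Cmtm6 intron: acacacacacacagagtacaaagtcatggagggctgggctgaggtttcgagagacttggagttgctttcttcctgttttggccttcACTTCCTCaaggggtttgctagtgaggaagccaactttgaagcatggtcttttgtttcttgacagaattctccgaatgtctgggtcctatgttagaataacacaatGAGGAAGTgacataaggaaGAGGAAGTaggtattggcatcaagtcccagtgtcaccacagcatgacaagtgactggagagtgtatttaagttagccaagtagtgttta
Rora intron: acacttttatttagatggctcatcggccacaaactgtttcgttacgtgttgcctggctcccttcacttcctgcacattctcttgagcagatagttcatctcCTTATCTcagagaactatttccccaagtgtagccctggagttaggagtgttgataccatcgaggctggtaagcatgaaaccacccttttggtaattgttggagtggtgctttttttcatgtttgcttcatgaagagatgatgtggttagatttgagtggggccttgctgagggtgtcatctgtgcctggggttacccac
Vav1 upstream: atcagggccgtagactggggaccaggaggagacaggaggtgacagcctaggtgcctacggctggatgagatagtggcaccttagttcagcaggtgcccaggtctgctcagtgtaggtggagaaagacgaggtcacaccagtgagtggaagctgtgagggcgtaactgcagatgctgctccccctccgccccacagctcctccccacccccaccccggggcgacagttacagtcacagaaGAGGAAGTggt

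The regions shown behaved as follows. The Otud1 region, chr2:19626757-19627593, had 27.8 CPM in immune-like cells against 0.174 in the remaining cells of Control, and 33.1 against 0.293 in MOF cKO. The Ccdc146 intron carries a PU.1 match and an IRF match and had 26.4 CPM against 0.218 in Control and 23.8 against 0.246 in MOF cKO. The Rin2 intron, with PU.1 and AP-1 matches 10 bases apart from start to start, had 51.6 CPM in macrophage-like cells of Control and 55.3 in those of MOF cKO, and 0 in mast-like cells of both. The Cmtm6 intron holds 3 PU.1 matches and had 52.6 and 42.8 CPM in macrophage-like cells of Control and MOF cKO. The Rora intron showed the opposite order, with 116 sites over the 31 mast-like cells and 2 over the 204 macrophage-like cells.

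The score separated the immune-like cells from the bulk of the skin, and what follows in this paragraph describes the choice and is not a finding. Scores of immune-like cells ran from 3.14 to 9.46 with a median of 5.35 in Control, and from 3.02 to 10.5 with a median of 5.41 in MOF cKO. The medians over the remaining cells were 0.840 and 0.670. The nearest cells outside the limit had scores of 2.91 in Control and 2.99 in MOF cKO, and the nearest inside had 3.14 and 3.02. In addition, 20 cells in Control and 31 in MOF cKO passed the score with fewer than 20 sites at the 9 genes and were left out. Their median depth was 15365 and 14233 sites, against 59955 and 46766 in immune-like cells and 71177 and 69138 in the cells that were not. When all cells were clustered on their accessible regions without the score, 246 of the 260 fell into a single cluster of 320 cells, and 14 lay elsewhere.

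**Figure D1:**
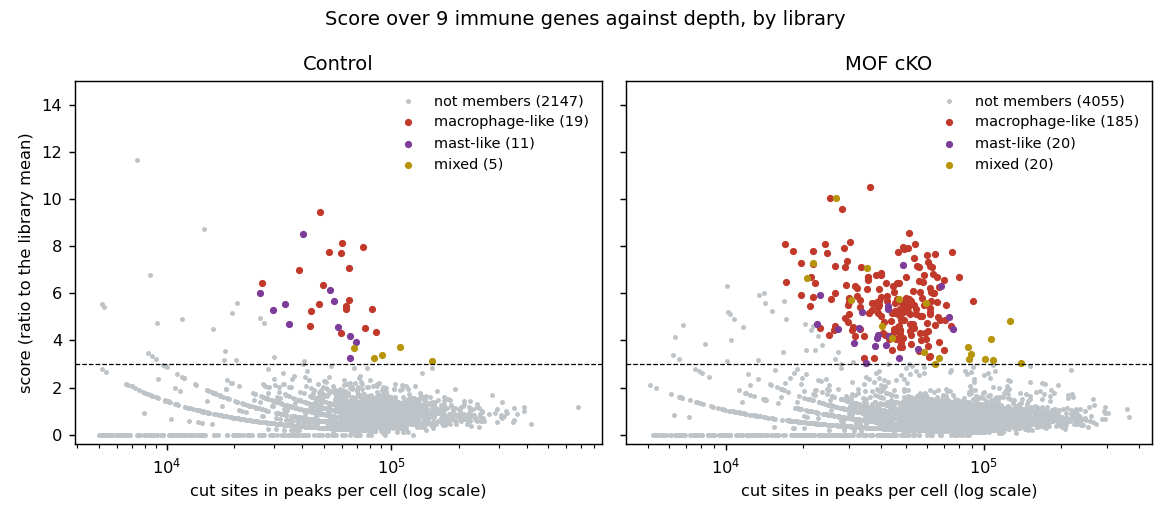
Score of each cell (ratio to the library mean) against its cut sites in peaks on a log axis, for Control and MOF cKO, with immune-like cells coloured by subset and the limit of 3 as a dashed line. Immune-like cells reach 9.46 in Control and 10.5 in MOF cKO, the macrophage-like cells number 19 and 185, and grey cells above the line had fewer than 20 sites at the 9 genes.

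The 9 genes did not carry the score alike. Over the gene bodies, Fcer1g stood out most, with 35.97 CPM in immune-like cells of Control against 0.540 in the remaining cells and 42.5 against 1.10 in MOF cKO. Tyrobp was next at 53.3 against 1.30 in Control and 84.8 against 2.21 in MOF cKO. Laptm5, which encodes a lysosomal protein of blood cells, had 136 against 7.03 and 156 against 13.9. Ptprc had 72.9 against 11.4 in Control and 115 against 15.1 in MOF cKO, and Csf1r had 69.6 against 10.1 and 142 against 16.4. Coro1a, an actin regulator of leukocytes, differed least, with 48.6 against 25.1 CPM and 59.8 against 22.9, and 53.2% and 51.8% of the remaining cells also had a site there. Spi1 had a site in 97.1% of immune-like cells of Control and 95.1% of MOF cKO, and Vav1, a signalling protein of blood cells, in 91.4% and 97.3%. Of the remaining cells 60.6% and 59.4% also had a site at Spi1 and 59.6% and 58.4% at Vav1. Because sites at these genes chose the cells, their excess restates the choice. The sites were counted over 48 peaks in Control and 80 in MOF cKO, so these levels cannot be compared between libraries.

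Clustering the 260 cells on their own gave 6 clusters. Clusters 1, 2, 3 and 5 carried macrophage markers and are called macrophage-like, cluster 4 carried mast cell markers and is called mast-like, and cluster 6 could not be named. Of 12 macrophage markers, 6, 5, 5 and 3 were at least 2-fold above the other cell classes in clusters 1, 2, 3 and 5. They included Adgre1, which encodes F4/80, the mannose receptor gene Mrc1 and Ms4a7 in each of these clusters. In cluster 5 these 3 were the markers that passed. In clusters 1, 2, 3 and 5 alike no immune list had 3 markers 2-fold above the other immune-like cells. Each was therefore tested against the macrophage list. Over the cells that were not immune-like, clusters 2 and 3 each had 6 of 12 macrophage and 3 of 6 monocyte markers at least 2-fold higher. Cluster 1 had 7 of 12 and 2 of 6, and cluster 5 had 3 of 6 monocyte markers. Of the 6 monocyte markers 2 had no peak and could not pass, while every macrophage marker had a peak in at least 1 library. The macrophage name therefore does not set these clusters apart from monocytes. Against the cells that were not immune-like, cluster 5 had 4 of 12 macrophage markers and 5 of 10 dendritic and Langerhans cell markers at least 2-fold higher, among them Itgax at 77.3 CPM against 1.98, Flt3 at 145 against 17.6 and Batf3 at 58.0 against 17.5. Its name is therefore the least certain of these clusters. In the macrophage-like cells as a whole Mrc1 had 100.2 CPM against 26.0 in cells that were not immune-like and Adgre1 25.3 against 0.738. In these marker comparisons the cells that were not immune-like leave out 16 cells of Control and 58 of MOF cKO. Those lay in the immune-like cluster of all cells but were not chosen by the score. The genes that led these clusters over other classes included Trem1, Trem2, Clec4n, Cd36 and Tfec, most of which encode myeloid surface receptors. C1qa and C1qc, which encode complement subunits of macrophages, did not stand out at 7.61 and 5.21 CPM against 10.1 and 5.94, so not every macrophage marker was more accessible in these cells.

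Cluster 4 had 6 of 10 mast cell markers at least 2-fold above other classes. They were Cpa3, Mcpt4 and Tpsab1, which encode granule proteases, Hdc, which makes histamine, the monoamine transporter gene Slc18a2, and Gata2. Hdc had 218 CPM there against 60.0 in macrophage-like cells, Slc18a2 107 against 4.69, and Gata2 97.8 against 23.8. The genes that led this cluster over the other immune-like cells were Cyp11a1, which starts steroid synthesis, Slc18a2 and Add2. Rab27b, which serves granule release, followed. Icos, a costimulatory receptor gene known from T cells, was also among its leaders. Of 10 T cell markers 4 were 2-fold above the remaining cells, while Cd3e, a defining part of the T cell receptor complex, had 15.1 CPM against 4.12 and Cd3g 5.75 against 2.30. Cd3d, another part of that complex, had 57.5 against 2.56. The summed level of the T cell list was 486 CPM against 447 in cells that were not immune-like. In that sum Bcl11b had 15.8 against 191 and Skap1 90.6 against 123.03, and Tcf7, at 37.4 against 43.9, and Themis, at 7.19 against 7.86, were not higher either. Of 8 NK and innate lymphoid markers 5 were at least 2-fold above the cells that were not immune-like, beside 6 of 10 mast cell markers. The summed level of the NK and innate lymphoid list was 175 against 37.6. Whether the cluster holds such cells beside mast-like ones was not tested. Il2rb, a cytokine receptor gene of NK and T cells, had 1.88 CPM in mast-like cells of Control and 74.5 in those of MOF cKO. With a clustering resolution of 1.5 in place of 1, a cluster of 17 cells, 1 of Control and 16 of MOF cKO, was led by genes that included Lime1, Il2rb and Klrc1, and with 2 of 10 T cell markers it stayed unnamed. The mast-like cluster then held 11 and 15 cells.

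Cluster 6, called mixed, had 0 of the macrophage markers 2-fold above the other classes. Relative to the other immune-like cells, 6 of 10 epithelial and 5 of 10 fibroblast markers were at least 2-fold higher, and its leading genes included Trp63, Pkp1 and Ddr2, of which the first encodes the master regulator of epidermis. Its summed epithelial markers reached 361 CPM against 105 in macrophage-like cells. The median doublet score was 0.34, against 0.04 to 0.16 in the other clusters, where the score is the share of simulated doublets among the nearest neighbours of a cell. It also held 13 of the 14 immune-like cells that lay outside the immune-like cluster. Whether these are doublets of an immune and another cell was not tested.

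**Figure D2:**
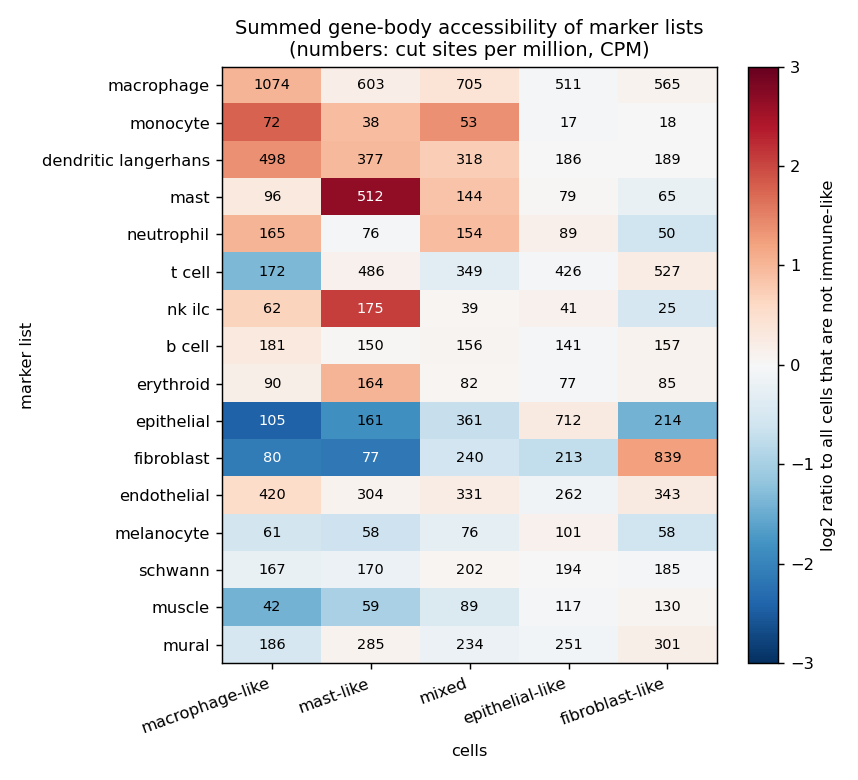
Summed gene-body accessibility (CPM, printed in each tile) of 16 marker lists in macrophage-like, mast-like, mixed, epithelial-like and fibroblast-like cells, coloured by the log2 ratio to all cells that are not immune-like. Macrophage markers sum to 1074 CPM in macrophage-like cells and mast markers to 512 in mast-like cells, while epithelial markers reach 361 in the mixed cluster.

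Within subsets the cells varied widely. The summed macrophage list had a median of 1036 CPM per macrophage-like cell, from 306 to 1787, against a median of 588 in mast-like cells, from 170 to 991. The mast list had a median of 554 CPM per mast-like cell, from 85.0 to 1103, against 86.3 in macrophage-like cells, from 0 to 340. These ranges overlap, so the lists describe the subsets and do not sort single cells. The neutrophil list was at 165 CPM in macrophage-like cells and 76.2 in mast-like cells against 79.3 in cells that were not immune-like, and the B cell list at 181 and 150 against 146. The dendritic and Langerhans cell list reached 498 CPM in macrophage-like cells against 188, with 3 of 10 genes 2-fold higher. The integrin gene Itgax had 88.5 against 1.98, the receptor gene Flt3 108 against 17.6 and Batf3 54.0 against 17.5, while Cd207, the marker of Langerhans cells, had 2.19 against 3.37. The monocyte list reached 72.1 against 17.6 with 3 of 6 genes 2-fold higher, among them Ccr2 at 15.8 against 0.473 and Cd300e at 28.0 against 3.61. Of these 6 genes 2 had no peak and could not pass. Of 11 neutrophil markers 4 were 2-fold higher, among them Mmp8 at 31.5 against 3.68 and Csf3r at 15.4 against 0.742, and so were 2 of 8 endothelial markers, Cdh5 at 63.9 against 17.0 and Kdr at 56.0 against 18.4. Other endothelial markers were lower, among them Tie1 at 1.15 against 9.99, Emcn at 0.625 against 3.46 and Erg at 63.0 against 91.8. Lymphoid lists had 2-fold higher members as well. They were Ms4a1, at 18.3 against 0.745, and Fcrla, at 18.1 against 0.280, of 8 B cell markers, Cd3d, at 24.7 against 2.56, of 10 T cell markers, and Klrb1c, at 11.6 against 0.749, of 8 NK and innate lymphoid markers. A 2-fold excess at a few genes of a list was thus not particular to myeloid lists. Some defining genes had no peak in 1 library and therefore no value there, among them Ms4a7, Ccr2 and Tpsab1 in Control.

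Immune-like cells took a larger share of the MOF cKO library. They were 1.60% of Control cells, with an exact binomial interval from 1.12 to 2.22, and 5.26% of MOF cKO cells, from 4.61 to 5.97, a ratio of 3.28. The minimum of 20 sites was counted over 48 peaks in Control and 80 in MOF cKO. It left out 20 cells of Control and 31 of MOF cKO that passed the score. When each cell was thinned to 5000 sites and the score alone was used, the shares were 5.68% and 9.65% and the ratio was 1.70. Sites at the genes of the score were on average 0.0140% of the sites of a cell in Control and 0.0189% in MOF cKO. At 5000 sites a score of 3 therefore rests on very few sites, which a cell can reach by chance. The ratio in thinned cells thus cannot show the part of depth in the shares. Because sorting sets the number of epithelial cells, the count was also set against cells of other classes. Among cells that were not epithelial-like, 4.60% were immune-like in Control (35 of 761) and 13.4% in MOF cKO (225 of 1675). Per 100 fibroblast-like cells there were 5.56 in Control, over 629 fibroblast-like cells, and 18.4 in MOF cKO, over 1224. The ratio was 3.30, with a conditional interval from 2.31 to 4.86.

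Among the subsets, macrophage-like cells had the ratio furthest from equality. There were 19 in Control and 185 in MOF cKO, or 3.02 and 15.1 per 100 fibroblast-like cells, a ratio of 5.00 (3.11 to 8.50). Without cluster 5 there were 14 and 160, a ratio of 5.87 (3.40 to 11.0). Cells of the unnamed mixed cluster numbered 5 and 20, a ratio of 2.06 (0.749 to 7.01) whose interval spans equality. Mast-like cells numbered 11 and 20, or 1.75 and 1.63 per 100, a ratio of 0.934 (0.427 to 2.16), and that interval spans equality too. The macrophage-like share of immune-like cells was 54.3% in Control (36.6 to 71.2) and 82.2% in MOF cKO (76.6 to 87.0), and the mast-like share 31.4% (16.9 to 49.3) and 8.89% (5.51 to 13.4). Cluster 1 held 60 cells of MOF cKO and 0 of Control, which allows up to 8.57% of the immune-like cells of Control when 3 cells are taken as the limit of a count of 0, and 10.0% by the exact interval. Clusters 2, 3 and 5 held 5, 9 and 5 cells of Control and 54, 46 and 25 of MOF cKO. With 1 library per genotype, a cluster found in 1 library cannot be told apart from that library.

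Other classes that were not epithelial-like gave the scale. Per fibroblast-like cell, mural-like cells had a ratio of MOF cKO to Control of 1.75 (1.05 to 3.04), endothelial-like cells of 1.54 (0.670 to 3.97), Schwann-like cells of 0.925 (0.581 to 1.497) and muscle-like cells of 0.492 (0.261 to 0.923). Their values thus ran from a lower to a higher count in MOF cKO, and the interval of the macrophage-like ratio lay above that of mural-like cells but overlapped that of endothelial-like cells. Doublet scores moved with genotype. Macrophage-like cells of Control had a median score of 0.22 and those of MOF cKO 0.06. Leaving out immune-like cells with scores of 0.22 or more kept 7 of 19 macrophage-like cells in Control and 184 of 185 in MOF cKO, which gave a ratio of 13.5 per fibroblast-like cell. For all immune-like cells it kept 20 and 203, with a ratio of 5.22, and for mast-like cells 11 and 10, with a ratio of 0.467. These ratios were taken over all fibroblast-like cells. Because the scores are not alike between libraries, this cut cannot check the direction for macrophage-like cells.

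**Figure D3:**
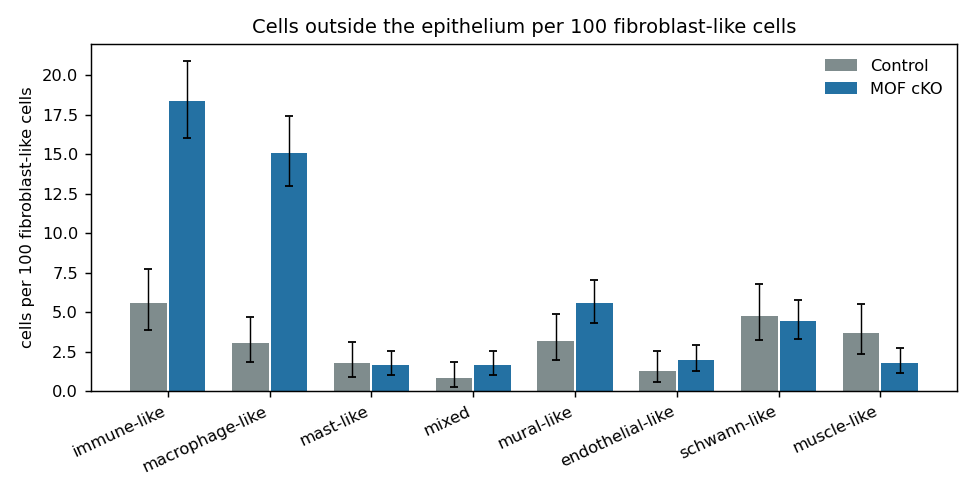
Immune-like cells, their 3 subsets and 4 other classes per 100 fibroblast-like cells in Control (grey) and MOF cKO (blue), with exact 95% intervals of counting error. Macrophage-like cells stand at 3.02 and 15.1, whereas mast-like cells stand at 1.75 and 1.63.

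Promoters give the identity of the cells beyond the genes of the score. Of 14240 promoters with enough sites, 920 were at least 2-fold higher in immune-like cells than in the remaining cells in both libraries (6.46%) and 1056 at least 2-fold lower in both (7.42%). The median promoter stood at 1.20-fold in Control and 1.54-fold in MOF cKO, and the folds below are read against these values. The greatest excess was at Cd53, which encodes a tetraspanin of leukocytes, in the promoter region chr3:106789734-106790621. It had 40.7 CPM against 0.149 in Control and 30.02 against 0.235 in MOF cKO. Ccl3, a chemokine that draws in leukocytes, had 38.3 against 0.386 and 51.7 against 0.488. Ccr1, a receptor for that chemokine, had 31.6 against 0.299 and 41.0 against 0.582. These 3 promoters were thus nearly closed outside the immune-like cells, and in both libraries.

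The other leaders were Nckap1l, an actin regulator of blood cells, at 80.3-fold in Control and 69.8-fold in MOF cKO, Wdfy4 at 69.6 and 69.9, and Tnfsf14, a cytokine of the TNF family, at 65.3 and 66.2. Rgs1, a brake on chemokine signalling, stood at 62.7-fold and 70.6-fold. Cd300c and Cd300lf, which encode paired myeloid receptors, stood at 138 and 61.7 and at 61.6 and 73.7, and the gene model Gm14548 at 58.5 and 79.9. Among the genes of the score, which were used to choose the cells, Fcer1g stood at 77.0-fold and 53.2-fold and Spi1 at 47.5 and 48.2. Csf1r stood at 10.8 and 7.72 and Coro1a at 1.97 and 2.66.

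The genes are given by role, and those counted had to pass the minimum of sites in immune-like cells. Of the complement list 5 passed and were at least 2-fold higher in both libraries, while C1qa, with 19 sites, did not pass and stood at 2.004-fold in Control and 0.974-fold in MOF cKO. The 5 included the receptors C5ar1, at 51.7-fold and 41.1-fold, and C3ar1, at 81.6 and 8.83, and properdin (Cfp), at 50.1 and 62.1. Of 13 genes of Fc and phagocytic receptors and their adaptors 7 were 2-fold higher. They include Fcer1g and Tyrobp, which chose the cells, and the integrin gene Itgam at 7.46 and 8.31, which did not, and Axl was lower at 0.324 and 0.378. Of 10 chemokines 6 were higher and 1 was lower, Cxcl1 at 0.0796 and 0.239. Chemokine receptors gave 4 of 8, with Cx3cr1 at 25.5 and 13.6 and Cxcr3 at 11.3 and 18.5. Transcription factors gave 9 of 23, a count that includes Spi1 and Ikzf1 of the score. Most others stood out by small factors, such as Runx3 at 2.71 and 3.56 and Irf8 at 2.47 and 2.14. Bcl11b, a T cell factor also used by epithelium, was lower at 0.208 and 0.177.

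Pattern recognition gave 5 of 14, led by the inflammasome gene Nlrp3 at 41.9 and 22.4, and the interferon list 4 of 14. Of 14 inflammatory effectors 3 were higher, among them Il1b at 7.67 and 4.34, and 2 were lower, Il1rn and Arg1. Other lists stood nearer the background of 6.46%, with 1 of 14 lysosomal genes (and 1 lower, Acp5 at 0.243 and 0.179), 1 of 7 MHC class II genes and 1 of 11 immediate early genes 2-fold higher in both libraries. Of 8 epithelial markers with enough sites 0 were higher and 6 were lower.

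Regions more than 2000 bp away from every annotated start are called distal. Of 165639 distal regions 40380 had the required 20 sites in immune-like cells, against 14240 of 16163 promoters, and regions of low level passed more readily where they were open in these cells, so the shares called are not compared between the kinds. Of the 40380, 9938 were at least 2-fold higher in both libraries (24.6%) and 3821 at least 2-fold lower (9.46%). After the Otud1 region, at 160-fold in Control and 113-fold in MOF cKO, came chr19:8019611-8020644, an intergenic region 41565 bp from Slc22a28, at 174 and 110. The next was chr17:57346794-57347573, 11118 bp from the macrophage gene Adgre1, which also lies within 50 kb of Vav1, at 127 and 109. Near the genes of the score, the intron of Ptprc, whose sites were part of the score, at chr1:138136084-138137006 had 33.5 CPM against 2.52 in Control and 37.8 against 2.37 in MOF cKO. An intergenic region 10226 bp from Laptm5, outside the window of the score, chr4:130902004-130902899, had 21.1 against 0.740 and 21.9 against 0.474.

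The PU.1 motif was the one with the clearest excess in these regions. Of the 1000 distal regions with the greatest excess in immune-like cells, 18.9% held GAGGAAGT in their central 300 bp (16.52 to 21.5), against 8.35% of the 9636 regions with at least 100 sites in immune-like cells, from which they were taken, and 2.48% of all 165639 distal regions. The C/EBP motif was in 20.1% (17.7 to 22.7) against 16.0% and 14.9% of these backgrounds. AP-1 was in 26.1% (23.4 to 28.9), below the 35.7% of the regions with at least 100 sites and above the 22.8% of all distal regions, so its direction turned with the background. RUNX was in 5.80% (4.43 to 7.43) against 4.48% and 3.26%, and the E-box in 6.90% (5.41 to 8.65) against 6.70% and 4.97%, so that both lay above all distal regions and had the level of the regions with at least 100 sites within their intervals. IRF, at 4.50% (3.30 to 5.98) against 3.97% and 3.84%, and GATA, at 4.30% (3.13 to 5.75) against 3.73% and 4.71%, had both levels within their intervals. The CTCF motif was in 0 of 1000, with an exact interval up to 0.368%, against 1.98% and 1.10%. GC content was 48.7% in the leading regions, 50.4% in those with at least 100 sites and 46.6% in all distal regions, and its part in these shares was not tested.

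**Figure D4:**
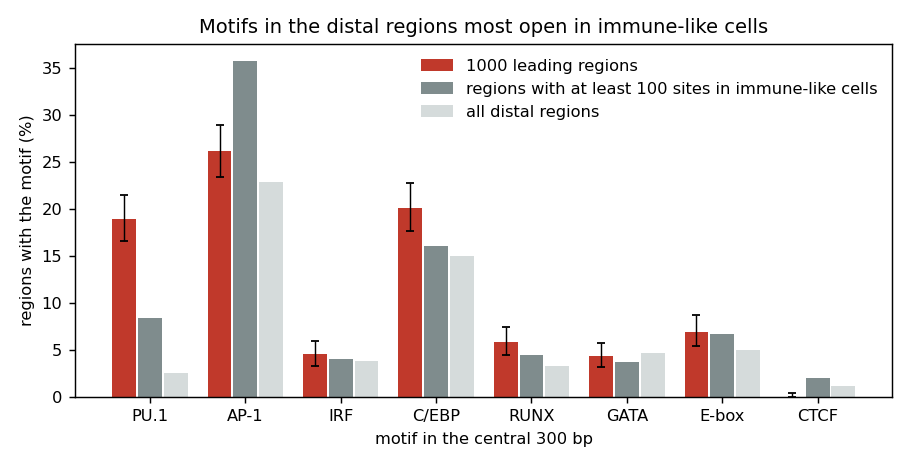
Percent of distal regions whose central 300 bp hold each of 8 motifs, for the 1000 regions with the greatest excess in immune-like cells (red, with exact 95% intervals) for the distal regions with at least 100 sites in immune-like cells (dark grey) and for all distal regions (light grey). PU.1 stands at 18.9% against 8.35% and 2.48%, and AP-1 at 26.1% lies between 35.7% and 22.8%.

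The subsets differed in their motifs. Among the 500 distal regions highest in mast-like over macrophage-like cells, 11.0% held the GATA motif (8.39 to 14.1), against 1.60% of the 500 highest in macrophage-like over mast-like cells (0.693 to 3.13). C/EBP showed the reverse, 10.0% (7.51 to 12.97) against 23.6% (19.9 to 27.6). PU.1 was in 7.20% (5.09 to 9.83) and 12% (9.28 to 15.2), and AP-1 in 42.6% and 44.4%. The clusters were formed on the same cells, so the regions themselves are a description of the clusters. An intron of Ccl1, which encodes a chemokine, led the mast-like side at chr11:82214245-82215158, with 146 sites in mast-like and 2 in macrophage-like cells.

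The comparison between genotypes asks whether skin with a MOF-deficient epithelium holds immune-like cells with altered chromatin. It was made in merged regions of which peaks of both libraries covered at least 70%, since a region covered only in part by the peaks of 1 library has too few sites there by construction. In epithelial-like cells, where Cre acts, 41.2% of the sites in these regions were in promoter regions in Control and 32.0% in MOF cKO. In immune-like cells the share was 50.8% and 52.3%. It was 54.2% and 53.2% in macrophage-like cells, 50.5% and 52.0% in mast-like cells and 43.3% and 47.4% in the mixed cluster. Per cell, macrophage-like cells ran from 43.7% to 67.2% with a median of 54.2% in Control and from 34.4% to 68.0% with a median of 52.8% in MOF cKO, so the libraries overlapped over nearly their whole range. Epithelial-like cells had medians of 40.8% and 31.3%. The lower promoter share of the MOF cKO epithelium was thus not seen in immune-like cells, with no test between libraries.

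Over 14016 promoters the median log2 change in immune-like cells was 0.02. It was -0.41 over 15880 promoters in epithelial-like cells and -0.03 over 15754 in fibroblast-like cells, each with its own minimum of sites. Of the 14016 promoters of immune-like cells 400 were at least 2-fold higher in MOF cKO (2.85%) and 752 at least 2-fold lower (5.37%). Scaled by the sites in all peaks of each library, which puts the median at -0.20, 241 were higher and 1103 lower. Within macrophage-like cells the median was -0.04 over 13189 promoters, with 619 (4.69%) and 519 (3.94%). Counting only promoters past 2-fold whose interval also left out equality, 132 were higher and 436 lower over all immune-like cells. In macrophage-like cells the same count gave 136 and 231, so the order there turned with the way of counting. The median promoter had 70 sites in Control immune-like cells and 42 in the macrophage-like cells of Control, so many single promoters past 2-fold rest on few sites. Kat8 itself had 49.8 CPM in immune-like cells of Control and 39.6 in MOF cKO, a log2 change of -0.33 (-0.78 to 0.15), against -0.41 in epithelial-like cells. The deletion of a coding part of the gene would not remove its promoter, so this value does not check the genotype.

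The genes of the score stayed within 2-fold. Cells of each library were chosen by their sites at these genes relative to that library, so the rule constrains their levels and these values are a description only. Csf1r had 35 sites in Control and 283 in MOF cKO, or 16.8 and 31.6 CPM, a log2 change of 0.91 (0.17 to 1.67) that was 0.22 in macrophage-like cells. In epithelial-like cells its promoter was near closed at 1.42 and 6.99 CPM but changed by 2.30, and that of Laptm5 changed there by 1.59. Ikzf1, which encodes a lymphoid and myeloid factor, had 33.1 and 51.2 CPM, a change of 0.63 (0.13 to 1.22) that was 0.11 in macrophage-like cells. The other 7 ran from -0.16 for Fcer1g to 0.31 for Coro1a, with Spi1 at 0.02 and Ptprc at 0.15. The composition of the immune-like cells differed between libraries, as given above, and its part in a value over all of them was not tested beyond the macrophage-like value beside it.

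The promoters highest in MOF cKO were nearly closed in Control. Slc7a11, which encodes the cystine transporter that supplies glutathione synthesis, had 8 sites in Control and 272 in MOF cKO, or 3.83 and 30.4 CPM, a log2 change of 2.99 (1.60 to 4.88). A site was present in 3 of 35 cells of Control and 96 of 225 of MOF cKO. In macrophage-like cells the levels were 7.38 and 33.2 CPM, a log2 change of 2.17, and epithelial-like and fibroblast-like cells changed by 0.28 and 0.54. The difference at Slc7a11 was thus present within the macrophage-like cells as well as over all immune-like cells.

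Rab3c, a vesicle GTPase better known from neurons, had 2 and 105 sites, a log2 change of 3.61 (1.06 to 8.93). The 2 sites of Control lay in a cell of the mixed cluster, and macrophage-like cells had 0 of 1084392 sites in Control and 86 in MOF cKO. Mmp9, which encodes a matrix protease of neutrophils and macrophages, had 6 and 98 sites, a change of 1.93 (0.30 to 4.25), and fibroblast-like cells changed by 1.51. Its 6 sites lay in the mast-like and mixed cells of Control, and the macrophage-like cells had 0 there and 84 sites in MOF cKO.

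Stfa3, a stefin, changed by 2.55 (0.96 to 4.87) with 6 and 151 sites, but fibroblast-like cells changed by 2.63 in the same direction. Htr7, a serotonin receptor gene, had 7 and 144 sites and a change of 2.26 (0.65 to 3.98), and Ninj2, an adhesion gene, 9 and 158 and 2.03 (0.79 to 4.11). The remaining leaders were Rhcg at 2.58 (0.67 to 5.68), Kcnk10 at 2.08 (0.65 to 3.98), Gm13212 at 2.03 (0.39 to 4.34) and Zswim2 at 1.88 (0.26 to 4.23). Each of these 4 had between 4 and 8 sites in Control. Kcnk10, a potassium channel gene, was also higher by 1.51 in epithelial-like cells.

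The promoters lowest in MOF cKO were in part genes of the mast-like and mixed cells. Rab27b had 81 sites in Control and 101 in MOF cKO, or 38.8 and 11.3 CPM, a log2 change of -1.78 (-2.41 to -1.14). Of these, 44 and 43 sites were in mast-like cells, at 85.3 and 58.7 CPM, and in macrophage-like cells the change was -1.79 on 16 and 30 sites. Ccdc9b had 59 sites in each library and the lowest change, -2.10 (-2.88 to -1.32). Of its 59 Control sites 28 were in mast-like and 29 in mixed cells, and in macrophage-like cells, with 2 and 36 sites, the value was 1.47 (-1.19 to 6.85). Tuba8, a tubulin gene, changed by -1.68 (-2.41 to -0.95) over all immune-like cells and by 0.04 (-1.72 to 2.43) in macrophage-like cells. In mast-like cells alone Ccdc9b and Tuba8 changed by -1.41 (-2.77 to 0.04) and -1.04 (-1.99 to 0.03). Their lower level over all immune-like cells was thus not seen in macrophage-like cells.

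Shisa2, which encodes a modulator of Wnt and FGF receptors, was lower within macrophage-like cells too. It had 32.3 CPM there in Control and 8.66 in MOF cKO, with a site in 7 of 19 and 25 of 185 cells, and a log2 change of -1.90, against -1.64 (-2.33 to -0.89) over all immune-like cells. Of the 19 cells of Control 12 had doublet scores of 0.22 or more, against 1 of the 185 of MOF cKO. Lower in both views were also 5330417C22Rik at -1.63 (-2.33 to -0.94), Pdlim2, a regulator of NF-kappaB, at -1.58 (-2.40 to -0.85) and Atp8b5 at -1.56 (-2.35 to -0.74), with -1.38, -1.43 and -1.44 in macrophage-like cells. Ptprg at -1.72, Trib2 at -1.60 and Dmkn at -1.70 were at -0.64, -0.42 and -0.43 in macrophage-like cells. Dmkn, a gene of the epidermis, had 51 of its 62 Control sites in the 5 mixed cells, at 105 CPM, and 0 sites in mast-like cells of either library.

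Among the immune pathways, few members passed 2-fold in either direction, read against the 2.85% and 5.37% of all promoters. Of 23 immune transcription factors 0 were 2-fold higher and 0 lower, with a median log2 change of 0.11. Cebpb changed by 0.67 (0.25 to 1.14) and Elf4 by 0.60 (0.08 to 1.16) over all immune-like cells, and by 0.33 and 0.26 in macrophage-like cells. Of 10 Fc and phagocytic receptors 1 was 2-fold higher, Stab1, a scavenger receptor gene, at 9.58 and 20.3 CPM and a change of 1.08 (0.14 to 2.19). In macrophage-like cells it changed by 1.00 (-0.19 to 2.49), and in epithelial-like cells by 1.74.

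Over all promoters 7357 of 14016 were above equality, against which the cytokines and chemokines are read. Of 13 inflammatory effectors 9 were, with a median of 0.42, and 2 were 2-fold higher and 1 lower. Tnf had 24.4 CPM in Control and 40.8 in MOF cKO and changed by 0.74 (0.12 to 1.37), Il23a by 0.82 (0.04 to 1.71) and Il12a, with 2 and 56 sites, by 2.71 (0.11 to 8.06). In macrophage-like cells Tnf and Il23a changed by 0.14 and 0.22, and in epithelial-like cells by 0.63 and 1.65. Il6 went the other way, from 28.3 CPM in Control to 13.6 in MOF cKO, which is a change of -1.05 (-1.73 to -0.40), with a site in 18 of 35 and 46 of 225 cells. In macrophage-like cells it had 25.8 and 9.80 CPM, a change of -1.40 (-2.35 to -0.41), while in epithelial-like cells it was higher by 0.74. Among 9 chemokines 8 were above equality and 1 was 2-fold higher, with a median of 0.38. In macrophage-like cells 3 of 9 were above equality and the median was -0.03. Cxcl2, which draws in neutrophils, had 37.9 and 66.4 CPM, a change of 0.81 (0.32 to 1.31), and 0.46 (-0.10 to 1.07) in macrophage-like cells, while fibroblast-like cells changed by 1.55.

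Of 7 chemokine receptors 1 was 2-fold higher, with an interval that included equality, and the median was 0.35. In macrophage-like cells their median was 0.004 over 6 receptors. There 1 was 2-fold higher and 1 was 2-fold lower, the latter with an interval that left out equality. Of 14 interferon response genes 3 were 2-fold higher over all immune-like cells, with a median of 0.11. The intervals of these 3 interferon genes included equality. In macrophage-like cells 0 of the 14 interferon genes were 2-fold higher and the median was -0.11. Of 13 pattern recognition, 6 MHC class II, 14 lysosomal and 11 immediate early genes 0 passed 2-fold in either direction, with medians of 0.07, -0.05, 0.11 and 0.02. Of 5 complement genes 0 passed 2-fold either, with a median of -0.02 and C3 at 0.82 (0.09 to 1.64) on 34 and 258 sites. In macrophage-like cells the complement median was -0.37, and 1 of 5 was 2-fold lower with an interval that left out equality. Ier2, an immediate early gene, was lower, at 76.7 and 46.9 CPM and a change of -0.71 (-1.09 to -0.32), with -0.88 (-1.34 to -0.36) in macrophage-like and -0.66 in epithelial-like cells. The neutrophil list had 2 of 4 members 2-fold higher, Mmp9 and the cathelicidin gene Camp, with 2 and 51 sites and a change of 2.57 (-0.01 to 7.96), and Camp changed by 1.70 in fibroblast-like cells. Of 3 mast markers 1 was 2-fold lower, Slc18a2, with 14.4 and 3.68 CPM, beside a mast-like share of 31.4% and 8.89%. Markers of other classes summed to lower values in MOF cKO immune-like cells, at 132 against 227 CPM for the epithelial list and 94.9 against 142 for the fibroblast list over gene bodies. These sums were counted over the peaks of each library separately, so they are not strictly comparable. The part of such markers in these changes was not tested.

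Distal regions were compared at lower counts than promoters. Of 37006 in immune-like cells, 7164 were at least 2-fold higher in MOF cKO (19.4%) and 6127 at least 2-fold lower (16.6%), with a median of 10 sites in Control. A count of 0 entered the change as a single site, so a region without sites in Control could pass. Scaled by the sites in all peaks of each library, 5323 were higher and 8237 lower. In macrophage-like cells 6024 of 26642 were higher (22.6%) and 3042 lower (11.4%). Counting only regions past 2-fold whose interval also left out equality, 1802 were higher and 2774 lower over all immune-like cells. In macrophage-like cells the same count gave 791 and 847, so the direction of the excess turned with the way of counting. The region with the greatest increase lay in an intron of Nedd9, chr13:41472726-41473832, with 1 site in Control and 173 in MOF cKO, or 0.479 and 19.3 CPM. Its log2 change was 5.33, with a lower limit of 2.41 and no upper limit. A site was present in 1 of 35 cells of Control and 63 of 225 of MOF cKO. Epithelial-like cells also had it open, at 10.8 and 17.3 CPM.

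A region in an intron of Zfp523, chr17:28193514-28194212, had 0 sites in Control and 152 in MOF cKO, at least 5.90-fold more when the floor of 3 fragments over the library is used. The lower limit of its exact interval was 2.23 on the log2 scale. An intergenic region 62462 bp from Tm4sf1, chr3:57222274-57223149, had 0 and 134 sites, at least 5.201-fold more by the same floor, with a lower limit of 2.04. Each was open in 57 of 225 immune-like cells of MOF cKO (25.3%) and 0 of 35 of Control, with the same limits of 8.57% and 10.0%. By cluster, the Nedd9 and Tm4sf1 regions were highest in cluster 1, at 32.8 and 23.8 CPM, and the Zfp523 region in cluster 2, at 28.1 CPM. They were not confined to these clusters or common to all macrophage-like ones. The Zfp523 region had 23.2 CPM in mast-like cells of MOF cKO and 5.21 in cluster 5, and in cluster 3 the Nedd9 region had 5.99 CPM against 17.7 in the mixed cluster. Cluster 1 held no cell of Control.

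The regions lowest in MOF cKO were open mainly in the mast-like cells. An intron of Rps6ka2, chr17:7173345-7174321, had 63 sites in Control and 56 in MOF cKO, or 30.2 and 6.25 CPM, a log2 change of -2.27 (-3.08 to -1.52). Of these sites 57 and 47 were in mast-like cells, at 111 and 64.1 CPM, and macrophage-like cells had 0 and 0.568 CPM. An intergenic region 11612 bp from Susd6, chr12:80777906-80778898, changed by -2.22 (-3.08 to -1.36), with 95.01 and 57.3 CPM in mast-like cells. The third, chr18:39644985-39645961, 125564 bp from the glucocorticoid receptor gene Nr3c1, changed by -2.21 (-3.06 to -1.37), with 101 and 51.8 CPM in mast-like cells. In mast-like cells themselves the Rps6ka2 region had a site in 10 of 11 cells of Control and 11 of 20 of MOF cKO. In those 20 cells 10 had doublet scores of 0.22 or more, against 0 of the 11 in Control. Over its gene body, in the peaks of each library separately, Il2rb was at 74.5 CPM in the mast-like cells of MOF cKO against 1.88 in those of Control. The part of either in the lower level was not tested.

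**Figure D5:**
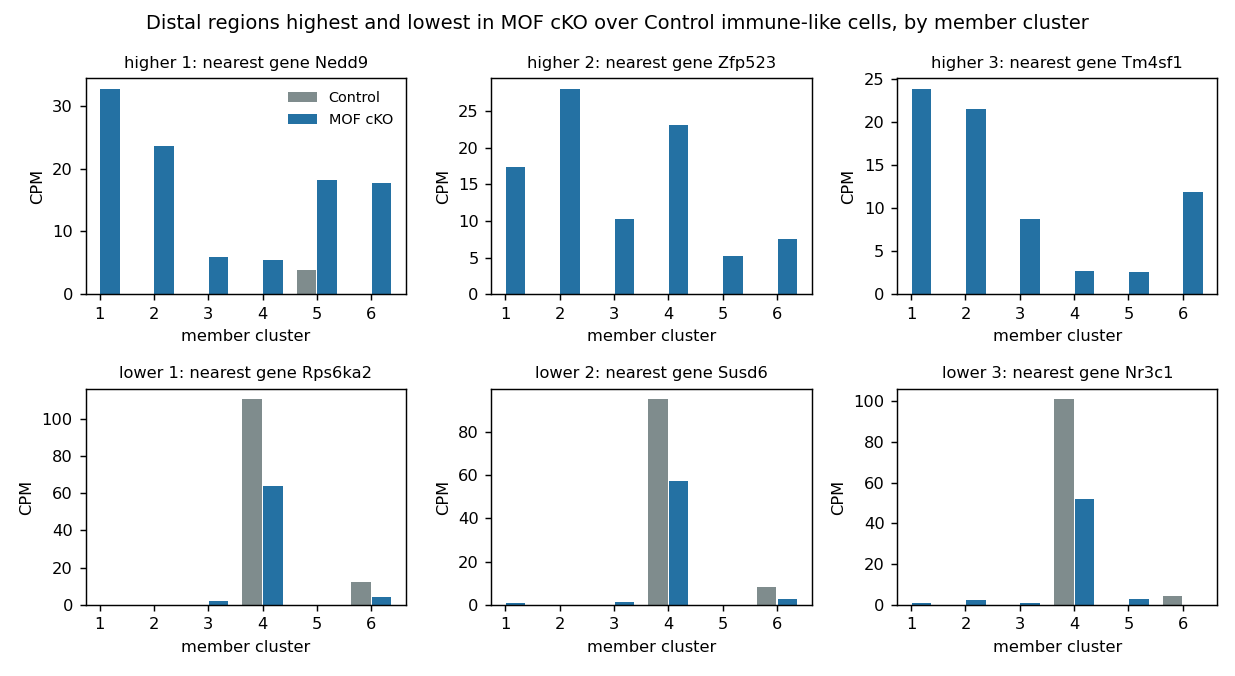
Accessibility (CPM) of the 3 distal regions highest (top) and the 3 lowest (bottom) in MOF cKO over Control immune-like cells, by cluster of immune-like cells, with Control in grey and MOF cKO in blue. The top regions reach at most 3.84 CPM in a cluster of Control, and the bottom regions are open almost only in cluster 4, the mast-like cells, at 111 and 64.1 CPM for Rps6ka2.

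Larger sets were described in the same way. Of 8693 distal regions with at least 100 sites, 8.01% were 2-fold higher in mast-like than macrophage-like cells and 43.2% 2-fold higher in macrophage-like cells. Among the 500 lowest in MOF cKO the mast-like share was 47.2%, and among the 500 highest the macrophage-like share was 78.4%. The GATA motif was in 11.0% of the 500 lowest (8.39 to 14.1), 3.20% of the 500 highest (1.84 to 5.14) and 3.67% of all 8693. C/EBP was in 8.60% (6.29 to 11.4), 23.2% (19.6 to 27.2) and 16.3%, and AP-1 in 28.0%, 50.2% and 37.4%. The mast-like share of these same cells was 31.4% in Control and 8.89% in MOF cKO, and the minimum of 100 sites was counted over both libraries, of which MOF cKO gave most. These shares are therefore a description of the immune-like cells as a whole and not of a change within a subset.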

How the data were processed

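Single-cell ATAC-seq of back skin from E16.5 mouse embryos gave 1 library of Control and 1 of MOF cKO. The deposited values are counts, for each barcode, of Tn5 cuts in each peak. The authors made them with Cell Ranger ATAC against mm10 with no normalization, with peaks and cells called for each library separately. Per the labels, Cell Ranger ARC and Cell Ranger ATAC were the tools.

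Cells with at least 5000 cut sites were kept. Peaks were merged across libraries, and CPM values of promoters (within 500 bp of a start, GENCODE vM21) and distal regions (over 2000 bp from every start) were taken over regions with a peak in both libraries. Genotypes were compared in regions of which the peaks of both libraries covered at least 70%, a limit chosen after the data were seen. A promoter or distal region entered with at least 20 sites in immune-like cells over both libraries. Leading promoters and regions were named from those with at least 100. Intervals are exact 95% intervals (binomial, or conditional for ratios) on fragments, taken as cut sites divided by 2, and cover counting error only. In a log2 change a count of 0 was set to a single site. The floor of 3, in fragments or in cells, was used for folds given as at least a value and for limits of a share.

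All cells were clustered with 30 components of latent semantic indexing over 50000 regions, leaving out components whose correlation with depth was 0.5 or more, and Leiden clustering over 20 neighbours at resolution 1. Immune-like cells were clustered again with 10 components and 15 neighbours. A cluster was named with at least 3 markers 2-fold above other classes (pseudocount 5 CPM), and a cluster in which no list had 3 markers ahead of the other immune-like clusters was tested against the macrophage markers. For markers, promoters and distal regions, immune-like cells were compared with cells that were neither chosen by the score nor in the immune-like cluster of all cells. Doublet scores used simulated doublets and 50 neighbours. Clustering ran with leidenalg 0.10.2 and python-igraph 0.11.9 on components from scikit-learn 1.9.0, intervals with scipy 1.17.1, tables with pandas 2.3.3 and numpy 2.4.6, sequences with pysam 0.24.0 and plots with matplotlib 3.10.9, in Python 3.11.15. The computation of changes was tested on simulated data.

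The immune-like cells and the gene lists were chosen with earlier results of these data known. Named were the 9 genes of the score, the markers of named subsets, the 10 promoters with the greatest excess in immune-like cells, the 10 highest and 10 lowest in MOF cKO, up to 4 genes of each functional list whose interval left out equality, and 3 distal regions by each of the same rules. Other genes named in the text were chosen after their values were seen. Some genes that these rules name are not reported here. Alternatives changed the score limits, depth, clustering, doublets, totals, site minimum, peak coverage and cell subset.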

Additional observations from a re-analysis of the deposited data

Results flagged for a closer look

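Some accessible DNA of the immune-like cells lay outside the regions that the comparisons above could use. Of 3397 distal regions called only in the MOF cKO library with at least 100 sites in its immune-like cells, 3273 were at least 4-fold higher in those cells than in the remaining cells of the same library. The minimum of 100 sites was set in the same immune-like cells, so it favours regions that are high there and this count is a description. Among regions with a peak in each library 3844 of 7896 were, so the regions of MOF cKO alone made up 46.0% of all distal regions past that fold. They held 16.3% of the sites of immune-like cells in MOF cKO and 11.3% of those of the remaining cells. The Control library had 35 immune-like cells and the MOF cKO library 225, and the part of this number in which regions were called was not tested.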

How the results depend on the processing

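No paired analysis was possible because there was 1 library per genotype, and for the same reason no replicate could be left out. Over 79 results 478 alternative values were computed, of which 72 moved beyond their interval or count limit, 13 changed sign and the others did neither. The limit on region coverage, its alternatives the use of macrophage-like clusters with cells of both libraries, the ratio without cluster 5 and the motif background of regions with at least 100 sites were chosen after seeing the data.

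The share of immune-like cells depended on the limits of score and marker sites. It was 2.75% and 6.17% in Control and MOF cKO at a score of at least 2 (ratio 2.24). With at least 40 marker sites it was 0.871% and 3.27%. In thinned cells, which have no minimum of marker sites, it was 5.68% and 9.65% (ratio 1.70). A score of 3 in a thinned cell rests on very few sites, so chance counts can pass and these values cannot check depth. In MOF cKO the share was 4.58% at a score of at least 4 and 6.40% by cluster. The share stayed higher in MOF cKO under each of these choices, of which the thinned cells are not a check.

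The promoter share of sites in Control and MOF cKO was 53.3% and 53.1% at a score of at least 4, 53.1% and 52.9% in the cluster, 51.6% and 53.4% without the highest doublet scores, 54.2% and 53.2% in macrophage-like cells and 51.4% and 52.8% in thinned cells. Its order between genotypes thus turned with the choice of cells.

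Scaling by sites in all peaks of a library lowered the median log2 change to -0.20 for promoters, with 241 higher, and to -0.19 for distal regions. Median promoter changes were -0.043 in macrophage-like cells (619 higher), -0.0030 in macrophage-like clusters with cells of both libraries (439 lower), 0.048 with at least 100 sites (130 higher, 93 lower) and 0.040 without the highest doublet scores (772 higher). Median distal changes were 0.11 in macrophage-like cells (3042 lower), 0.28 with at least 100 sites (1324 higher, 168 lower), 0.068 with any overlap of peaks, and -0.021 with 90% coverage (3866 higher, 3839 lower). The macrophage-like clusters of both libraries had 4374 distal regions higher and 2426 lower. With any overlap, 6 of the 10 highest promoters held a region under 70% coverage.

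In macrophage-like cells 5 of the functional lists lay above the median of all promoters, against 9 over all immune-like cells. Relative to that median, transcription factors stood at -0.13, pattern recognition at -0.094, interferon response at -0.072 and lysosomal genes at -0.025, each with the opposite sign over all immune-like cells. Ccdc9b stood at 1.47 there and at 1.49 in the clusters of both libraries, and Tuba8 at 0.038 and 0.20. Beyond the smaller number of cells and sites these choices leave, the cause was not tested. Depth limits the Control side most, where the median promoter had 70 sites and the median distal region 10.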
